A study of Mus musculus with 14 samples.

Results

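Matrix metalloproteinases are zinc-dependent enzymes that cut collagens, proteoglycans and other proteins of the extracellular matrix, and the tissue inhibitors of metalloproteinases (Timp proteins) block their active site. Most are secreted by fibroblasts, tumour cells, macrophages or neutrophils as inactive proenzymes and are switched on by other proteases. In breast tumours they are known for remodelling the stroma and releasing growth factors and cytokines held in it. The RNA of 8 of these enzymes, Mmp2, Mmp3, Mmp9, Mmp10, Mmp11, Mmp12, Mmp13 and Mmp14, and of the inhibitor Timp1 was followed here in mouse tumours. The 9 genes were taken by name from a list, which was chosen with earlier results of these data known. All 9 were found among the 51789 genes of the count table and passed the filter on low counts.

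The series measured bulk tumour RNA in 14 libraries from 2 strains given vehicle or ACSS2i. ACSS2i is an inhibitor of ACSS2, the enzyme that makes acetyl-CoA from acetate. The labels number the libraries as replicates and do not say that each is a separate tumour or animal. From mice with the strain label "NGS mouse" came 3 vehicle and 3 ACSS2i libraries, and 4 of each came from mice labelled "C57BI/6 mouse" (C57BI6 in the plots). The series title places the study in triple negative breast cancer. What NGS stands for, the tumour line that all groups may share, the animals' age, and the inhibitor's dose and duration are not given in the sources used here. A design line speaks of Bmal1 status, which no label assigns to a library. The QuantSeq kit reads the 3′ end of polyadenylated RNA, so levels are given as CPM, counts scaled to the library's total, with no scaling by gene length, and they are compared between libraries and not between genes.

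Depth was 2.85 to 4.70 M counts per library in NGS and 17.6 to 20.3 M in C57BI/6, so strain, depth and any difference in preparation cannot be told apart. Krt8, an epithelial keratin, was at 208 ± 25.1 CPM in NGS vehicle (SD, n = 3) and 318 ± 24.6 CPM in C57BI/6 vehicle (SD, n = 4), whereas the epithelial adhesion gene Epcam was at 2.61 ± 1.90 and 0.0803 ± 0.0683 CPM. Of 8 epithelial or tumour cell markers 5 were lower and 1 higher in C57BI/6 vehicle by the edgeR test used below. The shares of all genes were 14% and 18.8%, and the median log2 difference of the 8 was −3.93. Their sum was 806 CPM in NGS vehicle replicate 1, and 324 and 300 CPM in replicates 2 and 3. In C57BI/6 vehicle it was 332 to 388 CPM. That replicate 1 was rich in skin markers, and the median was not taken without it. In all, 5 libraries were rich in markers of skin or skeletal muscle. The 8 skin keratinocyte markers summed to 838 CPM in NGS vehicle replicate 1 and 443 CPM in NGS ACSS2i replicate 1, and to 10.6 to 21.7 CPM in the other 12. The 8 skeletal muscle markers summed to 5609 and 2505 CPM in NGS vehicle replicates 2 and 3 and to 2436 CPM in C57BI/6 ACSS2i replicate 3, and to 3.0 to 800 CPM in the others. For the metalloproteinase genes and Timp1 introduced above, results are given without these libraries where that changes them. Other single genes, among them the markers and gene lists below, were not examined this way. Whether their calls hold without these libraries was not tested.

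Of the 9 genes 4, Mmp13, Mmp12, Mmp3 and Mmp10, lie in a stretch of 238 kb on mouse chromosome 9 (chr9:7272514-7510240, mm10). They are not all adjacent: Mmp1b, which overlaps Mmp12, lies between Mmp12 and Mmp3 and had 1 count over all libraries. Their promoter sequences are shown as a description. In the test of the strains in vehicle given below, Mmp3, Mmp12 and Mmp13 passed and Mmp10 did not. RefSeq windows (GRCm38.p6, 250 bases before to 50 after the gene's start) were at hand for 7 of the 9 genes, as 8 windows, and not for Mmp2 and Mmp9. The motif TGANTCA, which AP-1 factors bind and which reads the same on both strands, was in a window of each of these 4 genes. It was in no window of Mmp11, Mmp14 or Timp1, which also passed that test. Of 32851 RefSeq windows of the same length, 7.81% hold that motif and 13.6% hold TATAAA on either strand. The stretches from 100 bases before to 30 after the start are printed below 5′ to 3′ on the plus strand, with TGANTCA and TATAAA in capitals and Timp1 as the inhibitor for comparison.
Mmp3 (chr9:7445722-7445851): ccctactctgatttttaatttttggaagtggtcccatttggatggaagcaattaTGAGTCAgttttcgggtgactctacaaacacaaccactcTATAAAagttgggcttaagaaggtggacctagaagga
Mmp10 (chr9:7502242-7502371): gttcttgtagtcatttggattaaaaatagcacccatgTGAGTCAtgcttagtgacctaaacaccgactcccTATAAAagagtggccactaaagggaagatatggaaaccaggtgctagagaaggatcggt
Mmp13 (chr9:7272414-7272543): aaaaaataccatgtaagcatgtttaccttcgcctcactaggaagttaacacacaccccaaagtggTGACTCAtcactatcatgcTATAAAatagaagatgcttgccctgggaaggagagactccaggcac
Mmp12, the second of its windows (chr9:7347274-7347403): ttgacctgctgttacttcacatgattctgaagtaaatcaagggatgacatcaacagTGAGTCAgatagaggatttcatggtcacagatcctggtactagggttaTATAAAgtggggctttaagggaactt
Timp1 (chrX:20870066-20870195): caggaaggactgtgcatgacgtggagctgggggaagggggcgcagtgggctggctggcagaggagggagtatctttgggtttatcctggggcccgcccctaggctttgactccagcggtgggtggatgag
The first base of TGANTCA was at −46 in Mmp3, −63 in Mmp10, −35 in Mmp13 and −44 in the second Mmp12 window, counted from the annotated start. TATAAA followed it in each of these 4 stretches, with its first base at −7 in Mmp3, −29 in Mmp10 and −16 in Mmp13. In the second Mmp12 window it was at 5, after the start. The first Mmp12 window holds neither motif. These are matches of letters, no factor's binding was measured, and the part of the motif in the levels was not tested.

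The first comparison set the strains against each other in vehicle. A set of 5 metalloproteinases was higher in C57BI/6 tumours and the inhibitor Timp1 was lower. The inhibitor Timp3, described below, was higher there. In edgeR's quasi-likelihood test, fitted over 17294 genes with an adjusted p under 0.05, Mmp3, Mmp12, Mmp13, Mmp11 and Mmp14 passed as higher, Timp1 passed as lower, and Mmp2, Mmp9 and Mmp10 did not pass. The same 6 genes had no overlap between the libraries of the strains. Over all genes tested 32.8% passed (18.8% higher, 14% lower) and 41.5% had no overlap, so a difference between these strains was common. Markers of immune cells moved with the strain as well: 6 of 8 T cell markers passed as higher in C57BI/6 vehicle, and their sum was 12.2 to 20.3 CPM there and 2.77 to 3.8 CPM in NGS vehicle, where Cd3e, Cd3d, Cd3g and Cd8a were at 0. Of 10 neutrophil markers 6 were tested and 4 of them passed as higher. The 6 adipocyte markers summed to 14.9 to 165 CPM in C57BI/6 vehicle and 62.0 to 1158 CPM in NGS vehicle, with a median log2 difference of −2.34 and none past the test. The part of these cells in the strain difference was not tested. The median log2 fold change of the 9 genes was 1.03, beside 0.01 over all genes. The 9 genes and the gene lists below were chosen with earlier results of these data known. Setting them beside all genes is therefore a description. In the ACSS2i tumours 5 genes again passed as higher and 1 as lower, against a background of 40.3% (23.1% higher, 17.2% lower), and 5 of 9 genes had no overlap, against 44.9%.

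Few of these genes passed the same test for ACSS2i, and a gene that did not pass may still have changed. In NGS tumours 1 of 9 genes passed, Mmp14, which fell (2.69% of all genes passed, 1.38% as lower). DESeq2's Wald test passed 3 of the 9 there and limma voom 0. Mmp10 and Mmp14 had no overlap between the NGS groups, against 18.8% of all genes. In C57BI/6 tumours 0 of 9 genes passed, where 54 genes did (0.312% of all genes), and 2 of the 9 had an unadjusted p under 0.05, against 7.96% of all genes. DESeq2's Wald test and limma voom also called none of the 9 in C57BI/6. Timp1 alone had no overlap there, against 8.94% of all genes. The log2 fold change in C57BI/6 was below 0 for 7 of the 9 genes and in NGS above 0 for 6 of the 9. The test of the difference between the 2 strains' effects passed for 0 of the 9 genes (0.0173% of all genes passed, 3 genes), and 5 of the 9 had an unadjusted p under 0.05, against 13.8% of all genes. DESeq2's Wald test passed 1 of the 9, Mmp3, and limma voom 0. These treatment comparisons use the same vehicle libraries as the strain comparison in vehicle.

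**Figure D1:**
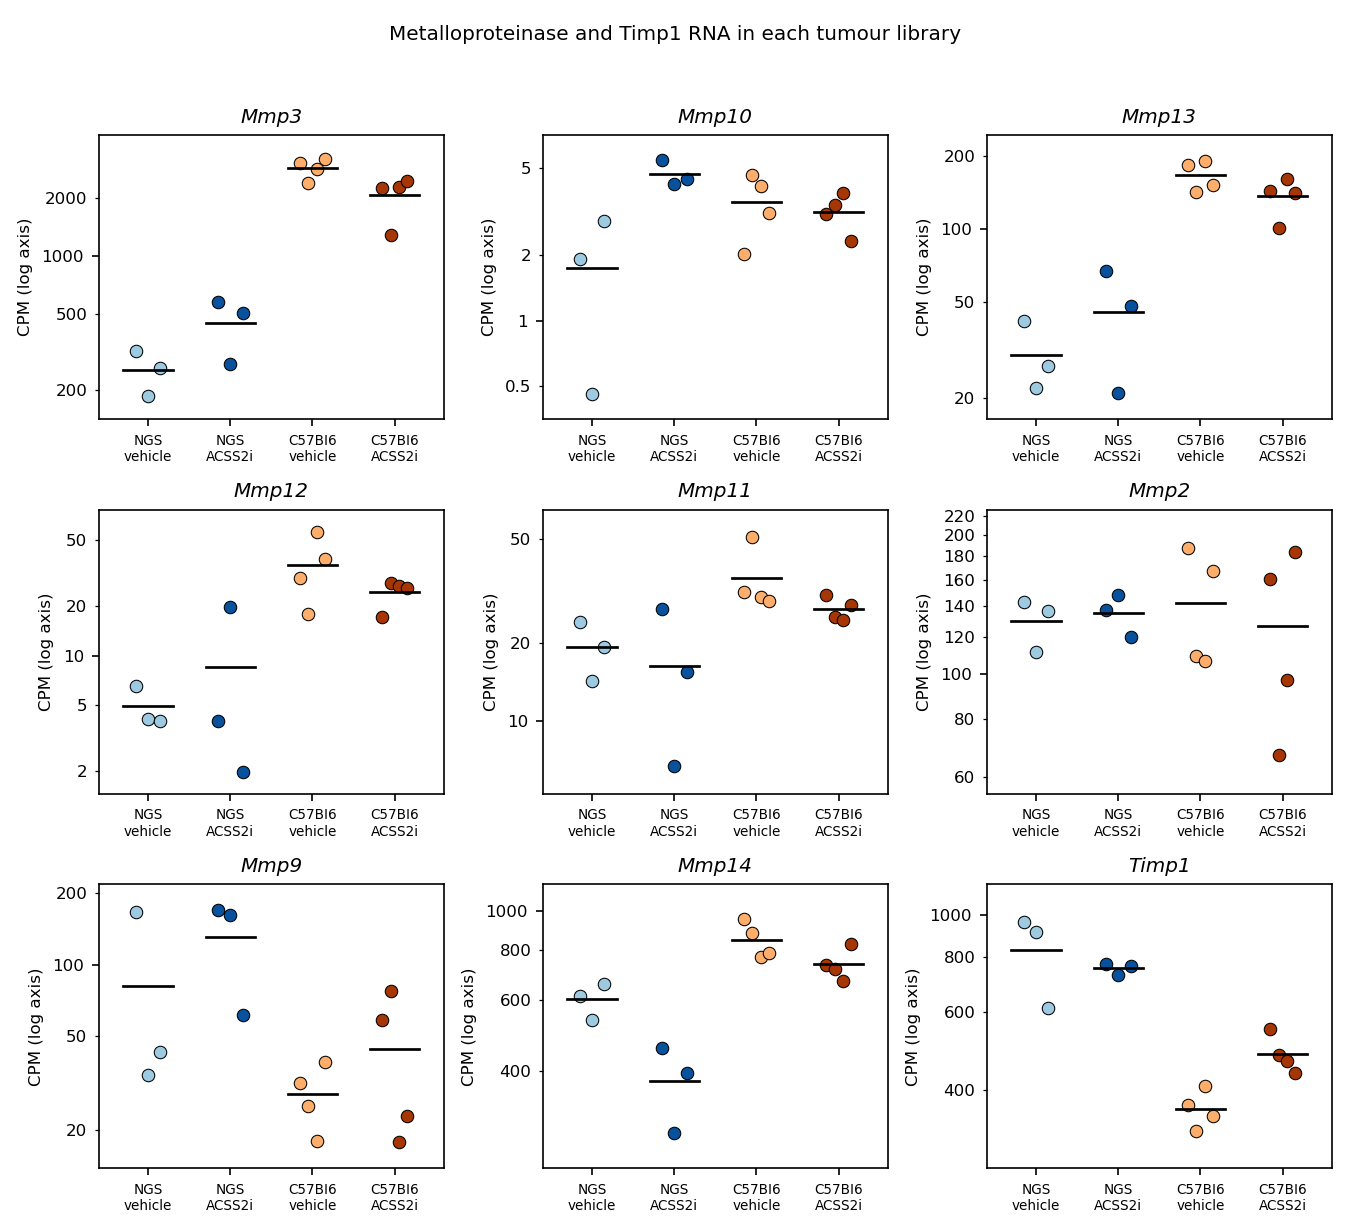
CPM of each gene (log axis) in each of the 14 libraries by strain and treatment, with points for libraries and bars for group means. Mmp3 and Mmp13 of every C57BI/6 library lie above every NGS library, and Timp1 lies below; Mmp9 spreads widely within groups.

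Mmp3, stromelysin of broad substrate range that also activates other proenzymes, differed most between the strains among the 9 genes (ENSMUSG00000043613, chr9:7445822-7455975, plus strand, mm10, GENCODE M21). NGS vehicle replicates 1 to 3 were at 318, 186 and 261 CPM, and NGS ACSS2i at 571, 272 and 502 CPM. C57BI/6 vehicle replicates 1 to 4 were at 3067, 2410, 2835 and 3213 CPM, and C57BI/6 ACSS2i at 2253, 1291, 2294 and 2461 CPM. The strains did not overlap under either treatment, and within each strain the treatments did. Group means were 255 ± 65.9 CPM in NGS vehicle (SD, n = 3) and 2881 ± 351 CPM in C57BI/6 vehicle (SD, n = 4). The fitted difference was 3.65 ± 0.29 on the log2 scale (SE), a fold of 12.6, with an edgeR adjusted p of 1.79e-07. It was 2.34 ± 0.27 in the ACSS2i tumours, a fold of 5.06 (edgeR adjusted p = 1.02e-05).

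The log2 fold change of Mmp3 with ACSS2i was 0.77 ± 0.27 in NGS (edgeR adjusted p = 0.117) and −0.53 ± 0.23 in C57BI/6 (edgeR adjusted p = 0.554). The difference between these effects, C57BI/6 minus NGS, was −1.31 ± 0.35 and did not pass (edgeR adjusted p = 0.205). DESeq2's Wald test called it, at an adjusted p of 0.0241, and gave 0.0416 for the effect in NGS. Over the alternatives the adjusted p of that difference ran from 0.0241 to 0.44. Of the bases in the last 500 of its transcripts, read as words of 25 bases, 43 of 476 words also occur in the gene Gm15242, and how shared reads were counted is not given.

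Mmp10, a second stromelysin with substrates close to those of Mmp3, was measured at few counts (ENSMUSG00000047562, chr9:7502352-7510240, plus strand). Its levels were 1.91, 0.461 and 2.85 CPM in NGS vehicle, from 9, 2 and 12 counts, and 5.45, 4.22 and 4.46 CPM in NGS ACSS2i, from 19, 12 and 18 counts. The 4 C57BI/6 vehicle libraries were at 2.03, 4.66, 4.17 and 3.12 CPM, and the 4 ACSS2i libraries at 3.10, 3.39, 3.83 and 2.31 CPM. All 3 treated NGS libraries were above all 3 vehicle ones. The log2 fold change in NGS was 1.39 ± 0.49 (SE) and did not pass the edgeR test (adjusted p = 0.121); DESeq2's Wald test gave an adjusted p of 0.0485. Between the strains the log2 difference was 1.16 ± 0.45 in vehicle (edgeR adjusted p = 0.0591) and −0.44 ± 0.40 in ACSS2i (edgeR adjusted p = 0.402). The vehicle difference passed without NGS vehicle replicate 3 (adjusted p = 0.0239) or C57BI/6 vehicle replicate 1 (0.0313), and in DESeq2 (0.0326). Without NGS vehicle replicate 2, the library with 2 counts, it was 0.717 (adjusted p = 0.212).

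Mmp13, the main interstitial collagenase of mice, followed the pattern of Mmp3 at a smaller size (ENSMUSG00000050578, chr9:7272514-7283331, plus strand). NGS vehicle libraries were at 41.7, 22.1 and 27.1 CPM and NGS ACSS2i at 67.1, 21.1 and 47.8 CPM. The C57BI/6 vehicle tumours were at 182, 142, 189 and 151 CPM and C57BI/6 ACSS2i at 142, 101, 159 and 141 CPM. Each C57BI/6 library was above each NGS library, and the treatments overlapped in both strains. The strain difference was 2.60 ± 0.31 on the log2 scale in vehicle, a fold of 6.06 (edgeR adjusted p = 1.57e-05), and 1.71 ± 0.30 in ACSS2i, a fold of 3.27 (edgeR adjusted p = 4.62e-04). The treatment effect was 0.55 ± 0.32 in NGS (edgeR adjusted p = 0.335) and −0.35 ± 0.25 in C57BI/6 (edgeR adjusted p = 0.863). NGS replicate 1 was the highest of its group in both treatments, and these are the libraries richest in skin genes. Without them the strain differences were 2.90 in vehicle and 2.10 in ACSS2i, both past the edgeR test.

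Mmp12, the macrophage metalloelastase, was low in NGS tumours (ENSMUSG00000049723, chr9:7344381-7369499, plus strand). Libraries of NGS vehicle were at 6.59, 4.15 and 4.04 CPM, and those of NGS ACSS2i at 4.01, 19.7 and 1.98 CPM. C57BI/6 vehicle libraries were at 29.4, 17.96, 56.3 and 38.4 CPM and C57BI/6 ACSS2i libraries at 17.1, 27.7, 26.3 and 25.7 CPM. Only NGS ACSS2i replicate 2 reached the C57BI/6 range. The strain difference was 3.00 ± 0.57 on the log2 scale in vehicle (edgeR adjusted p = 0.00101), a fold of 8.0, and 1.71 ± 0.55 in ACSS2i (edgeR adjusted p = 0.0225). The vehicle call was lost without the 3 muscle-rich libraries, which leaves 1 NGS vehicle library (2.63, adjusted p = 0.0828). The ACSS2i call was lost without NGS ACSS2i replicate 1 (1.39, 0.0857), without NGS ACSS2i replicate 3 (1.2, 0.0965), without the 2 skin-rich libraries (1.39, 0.0915) and without the muscle-rich ones (1.69, 0.0529). Without NGS ACSS2i replicate 2, the NGS library highest in Mmp12, the ACSS2i difference was 3.17 (adjusted p = 0.000481), and limma voom gave 2.97 (0.0201). The 10 macrophage markers summed to 2499 to 3749 CPM in NGS vehicle, 2668 to 3803 CPM in C57BI/6 vehicle, 3764 to 4059 CPM in NGS ACSS2i and 3311 to 4310 CPM in C57BI/6 ACSS2i, ranges that overlap. Of these 10 markers 3 passed as lower and 1 as higher in C57BI/6 vehicle, against 14% and 18.8% of all genes. In ACSS2i 4 passed as lower and 2 as higher in C57BI/6, against 17.2% and 23.1%. The part of macrophages in the level of Mmp12 was not tested. In bulk RNA fewer cells of a type and less RNA per cell cannot be told apart.

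Mmp11, a stromelysin that furin activates inside the cell and that stroma around carcinomas is known to express, differed less (ENSMUSG00000000901, chr10:75923222-75936496, minus strand). The NGS vehicle tumours were at 24.0, 14.3 and 19.3 CPM and NGS ACSS2i libraries at 27.0, 6.68 and 15.4 CPM. In C57BI/6 the vehicle libraries were at 31.4, 51.0, 30 and 29.1 CPM and C57BI/6 ACSS2i libraries at 30.6, 25.1, 24.5 and 28.0 CPM. The strains were apart in vehicle and overlapped in ACSS2i. The log2 difference was 1.03 ± 0.31 in vehicle (edgeR adjusted p = 0.0207) and 0.84 ± 0.32 in ACSS2i (edgeR adjusted p = 0.0499). The vehicle call was lost without NGS vehicle replicate 2 (adjusted p = 0.092) or 3 (0.0515), without C57BI/6 vehicle replicate 2 (0.0622) and without the muscle-rich libraries (0.333). The ACSS2i call stood at the threshold and was lost in 11 of 14 fits that left out a library. Part of Mmp11 overlaps Chchd10, on the opposite strand and at 4.58 to 41.0 CPM, and whether counting used strand is not given.

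Mmp2, the gelatinase that Mmp14 activates at the cell surface, had group means between 127 and 143 CPM (ENSMUSG00000031740, chr8:92827291-92853420, plus strand). NGS vehicle libraries were at 143, 112 and 137 CPM and NGS ACSS2i libraries at 137, 148 and 120.4 CPM. C57BI/6 vehicle libraries were at 187, 109, 107 and 167 CPM and C57BI/6 ACSS2i libraries at 161, 66.8, 97.3 and 183 CPM. All 4 groups overlapped. The strain difference in vehicle was 0.27 ± 0.29 on the log2 scale, with a 95% interval of −0.33 to 0.88, which leaves room for a change in either direction (edgeR adjusted p = 0.494). The treatment effect was 0.01 (95% interval −0.64 to 0.67) in NGS and −0.22 (−0.78 to 0.33) in C57BI/6.

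Mmp9, the gelatinase that neutrophils, macrophages and osteoclasts are known to release, was, of the 8 enzymes followed, the only one with lower group means in C57BI/6 under both treatments (ENSMUSG00000017737, chr2:164940780-164955850, plus strand). In NGS the vehicle libraries were at 167, 34.3 and 42.8 CPM and NGS ACSS2i libraries at 169, 161 and 61.5 CPM. Vehicle libraries of C57BI/6 were at 31.6, 25.3, 18.1 and 38.7 CPM and C57BI/6 ACSS2i libraries at 58.2, 77.4, 17.8 and 22.9 CPM. Replicate 1 stood high in NGS vehicle and replicate 3 low in NGS ACSS2i, and the strains overlapped. The strain difference was −1.37 ± 0.57 on the log2 scale in vehicle (edgeR adjusted p = 0.0764) and −1.43 ± 0.56 in ACSS2i (edgeR adjusted p = 0.0542), and neither passed. The vehicle difference passed with only the groups compared (−1.38, adjusted p = 0.0457) and without NGS vehicle replicate 2 (−1.72, 0.0453). The ACSS2i difference passed with no filter on low counts (0.0334), with C57BI/6 counts thinned to the NGS depth (0.0408) and in 4 of the 14 fits that left out a library, over which it ran from −1.85 to −1.17 and its adjusted p from 0.0234 to 0.154. In vehicle the size rests on NGS replicate 1, a skin-rich library: without both skin-rich libraries the difference was −0.297 (adjusted p = 0.719), and without the muscle-rich libraries, which leaves that library alone, −2.36 (adjusted p = 0.0105). The sum of the 10 neutrophil markers went the other way, at 15.4 to 76.8 CPM in NGS vehicle and 97 to 151 CPM in C57BI/6 vehicle. Of those markers 6 were tested and 4 passed as higher in C57BI/6 vehicle, against 18.8% of all genes. Ly6g, Mpo and Camp, at group means of 0.567 CPM or less, were lower in C57BI/6 vehicle. Elane was at 0 counts in both vehicle groups, and the part of neutrophils in the level of Mmp9 was not tested.

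Mmp14, the membrane-bound collagenase that activates Mmp2, was the one enzyme with a treatment call (ENSMUSG00000000957, chr14:54431612-54445364, plus strand). NGS vehicle libraries were at 615, 536 and 660.3 CPM and NGS ACSS2i libraries at 456, 279.7 and 395 CPM. C57BI/6 vehicle libraries were at 954, 884, 770.1 and 787 CPM and C57BI/6 ACSS2i libraries at 734, 716, 670.5 and 827 CPM. Treated NGS tumours were all below the vehicle ones, and both NGS groups were below the C57BI/6 libraries. Mmp14 fell by 0.72 ± 0.15 on the log2 scale in NGS (edgeR adjusted p = 0.022), from 604 ± 62.7 CPM to 377 ± 89.4 CPM (SD, n = 3 each). In C57BI/6 the log2 fold change was −0.26 ± 0.13 (edgeR adjusted p = 0.641). The difference between the strains' effects was 0.46 ± 0.19 and did not pass (edgeR adjusted p = 0.321).

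The NGS fall in Mmp14 stood close to the threshold. Without NGS vehicle replicate 1 the adjusted p was 0.0528, without NGS vehicle replicate 3 it was 0.0671, without NGS ACSS2i replicate 2 it was 0.0576 and without NGS ACSS2i replicate 3 it was 0.0559. limma voom gave 0.0526, a fit of the NGS libraries alone gave 0.204 and leaving out the muscle-rich libraries gave 0.159, with log2 fold changes of −0.884 to −0.534 over all alternatives. Without the skin-rich libraries the fall was −0.876 (adjusted p = 0.0143). Between the strains Mmp14 was higher in C57BI/6 by 0.64 ± 0.14 in vehicle (edgeR adjusted p = 0.00252) and 1.10 ± 0.14 in ACSS2i (edgeR adjusted p = 2.84e-05), and the vehicle call was lost without the muscle-rich libraries (0.659, adjusted p = 0.0619). Of its 3′-end words of 25 bases, 160 of 1229 also occur in other genes.

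Timp1, which inhibits most secreted metalloproteinases and binds Mmp14 poorly, ran opposite to the enzymes that differed between the strains (ENSMUSG00000001131, chrX:20870166-20874735, plus strand). Vehicle libraries of NGS were at 966, 914 and 613 CPM and NGS ACSS2i libraries at 773, 731 and 764 CPM. C57BI/6 tumours given vehicle were at 369.7, 322, 409 and 349 CPM and C57BI/6 ACSS2i libraries at 551, 481, 465 and 438 CPM. Every NGS library was above every C57BI/6 library, and within C57BI/6 the treated tumours were all above the vehicle ones. The strain difference was −1.05 ± 0.14 on the log2 scale in vehicle (edgeR adjusted p = 5.2e-05) and −0.51 ± 0.14 in ACSS2i (edgeR adjusted p = 0.0102). These calls held under every alternative run. The treatment effect was 0.35 ± 0.13 in C57BI/6, a fold of 1.27 (edgeR adjusted p = 0.419, and 0.0845 to 0.867 over the alternatives), and −0.18 ± 0.15 in NGS (edgeR adjusted p = 0.517). Timp1 lies within Syn1, which is on the opposite strand and was at 1.87 to 7.60 CPM.

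**Figure D2:**
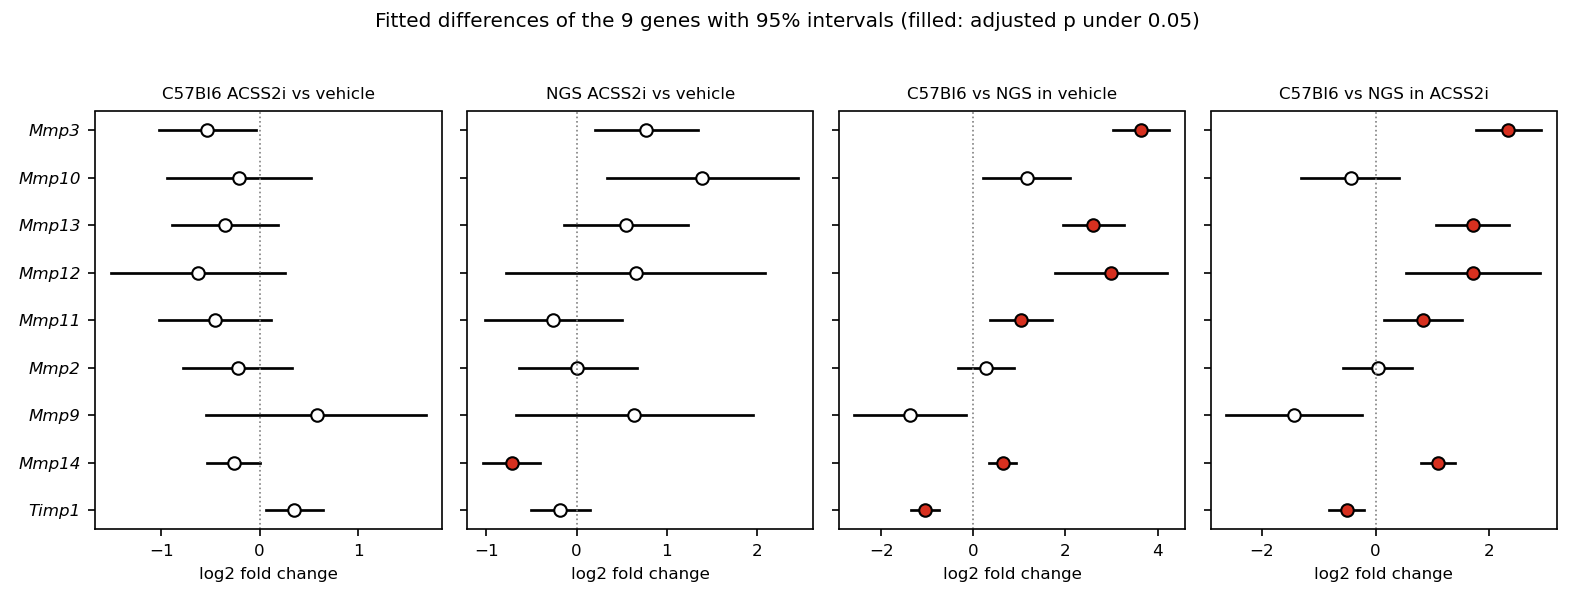
Fitted log2 fold change (x axis) of each gene in the 4 comparisons of groups, with a 95% interval derived from the test as a line. Points are filled where the edgeR adjusted p was under 0.05. The filled points are Mmp14 for ACSS2i in NGS and, between the strains, Mmp3, Mmp13, Mmp12, Mmp11, Mmp14 and Timp1.

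The inhibitor and each enzyme were also set against each other within a library, a ratio that does not depend on the scaling of the library. The ratio has no meaning as an amount of protein, and its differences between groups are what can be read. The mean log2 ratio of Timp1 to Mmp3 was 1.71 ± 0.54 in NGS vehicle and 0.82 ± 0.53 in NGS ACSS2i (SD, n = 3 each). In C57BI/6 it was −2.99 ± 0.18 in vehicle and −2.06 ± 0.47 in ACSS2i (SD, n = 4 each). C57BI/6 vehicle libraries ran from −3.20 to −2.79 and treated ones from −2.49 to −1.42, without overlap. The ratio to Mmp13 was 1.13 ± 0.08 in C57BI/6 vehicle and 1.85 ± 0.32 in C57BI/6 ACSS2i, with ranges of 1.02 to 1.21 and 1.54 to 2.25. To Mmp11 it was 3.39 ± 0.50 and 4.16 ± 0.14 in those groups, with ranges of 2.66 to 3.77 and 3.96 to 4.26. For Mmp14 it was −1.23 ± 0.24 and −0.61 ± 0.22 in those groups, with ranges of −1.46 to −0.91 and −0.92 to −0.41 that touch. In NGS the ratio to Mmp10 moved the other way, from 9.23 ± 1.62 in vehicle to 7.34 ± 0.16 in ACSS2i, with vehicle values from 7.75 to 10.95. The ratios are combinations of genes already described and were not tested.

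**Figure D3:**
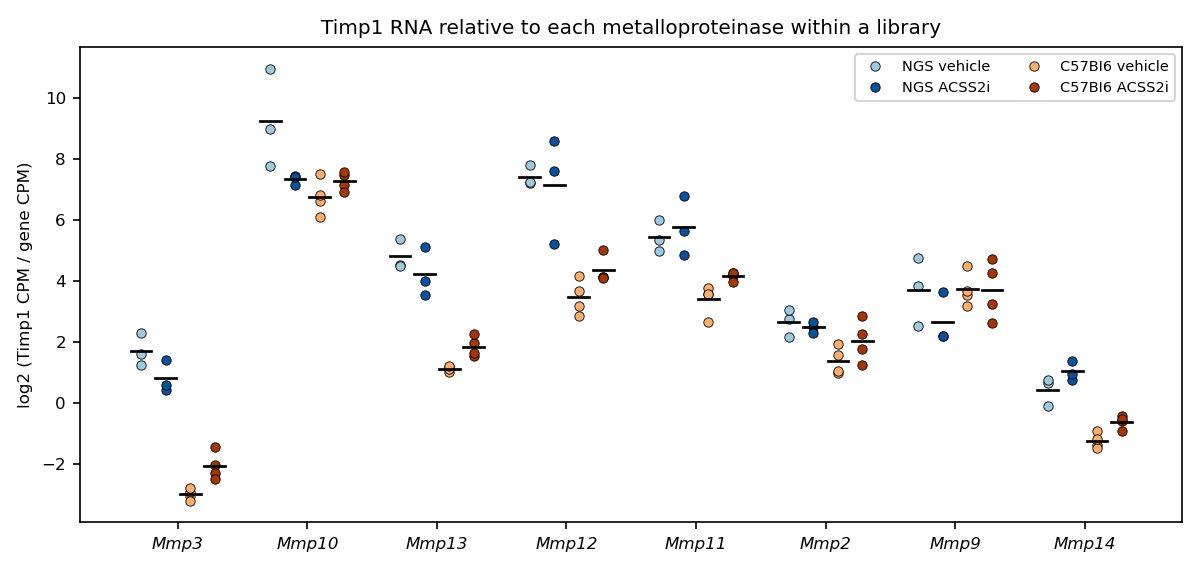
Log2 ratio of Timp1 CPM to the CPM of each metalloproteinase (y axis) in each library, by gene (x axis) and group, with bars for group means. The C57BI/6 ratios to Mmp3, Mmp13, Mmp12 and Mmp11 lie below the NGS ones, and within C57BI/6 the treated libraries lie above the vehicle ones for Mmp3, Mmp13 and Mmp11.

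Variation among libraries of a group was followed as the deviation of log2 CPM from the group mean over the 14 libraries, which share only their group's mean. Among the 36 pairs of the 9 genes the highest correlation was between Mmp3 and Mmp13 (Pearson's r = 0.888, Spearman's rho = 0.82, and r = 0.823 without the 2 libraries farthest from the median of Mmp3). Mmp11 and Mmp14 had r = 0.835, which dropped to 0.483 without 2 libraries. Mmp12, in the same stretch of chromosome 9 as Mmp3 and Mmp13, did not follow Mmp13 (r = −0.428, and 0.17 without 2 libraries). The lowest value was −0.696, between Mmp12 and Mmp14 (−0.464 without 2 libraries). Deviations of Mmp13 also ran with the summed skin markers (r = 0.723, and 0.494 without 2 libraries). These are descriptions, and no test was made.

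The 3 protein-coding genes most like each member in these deviations were taken from 11731 genes. For Mmp9 they were Trp53rka (r = 0.876), Ctsk, which encodes cathepsin K (r = 0.87), and Acp5, which encodes tartrate-resistant acid phosphatase (r = 0.864). Without 2 libraries the r of Acp5 was 0.795. Acp5 was at 73.4, 17.1 and 21.9 CPM in NGS vehicle, where Mmp9 was also highest in replicate 1, and Acp5 was lower in C57BI/6 than in NGS, by −1.67 ± 0.53 in vehicle (edgeR adjusted p = 0.0262). Ctsk did not differ past the test between the strains in vehicle (−0.49 ± 0.55, edgeR adjusted p = 0.529).

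For Mmp11 the most alike were Cab39 (r = 0.971) and the mast cell protease genes Mcpt4 (r = 0.963) and Cpa3 (r = 0.961). Without 2 libraries these were 0.905, 0.879 and 0.858. Between the strains in vehicle, where Mmp11 was higher in C57BI/6, the 2 mast cell genes had lower means there and did not pass. The log2 differences were −1.77 ± 0.69 for Mcpt4 (edgeR adjusted p = 0.0611) and −1.55 ± 0.70 for Cpa3 (edgeR adjusted p = 0.106). Mcpt4 was at 22.8, 10.1 and 14.7 CPM in NGS vehicle and at 6.02, 0 and 1.24 CPM in NGS ACSS2i, and Cpa3 at 53.0, 22.1 and 22.8 CPM and at 16.4, 0 and 1.49 CPM. The NGS groups did not overlap for either gene, and neither passed the edgeR test (log2 fold change −2.72 ± 0.89, adjusted p = 0.0999, and −2.48 ± 0.89, adjusted p = 0.127). In NGS ACSS2i replicate 2, the library lowest in Mmp11, both were at 0.

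**Figure D4:**
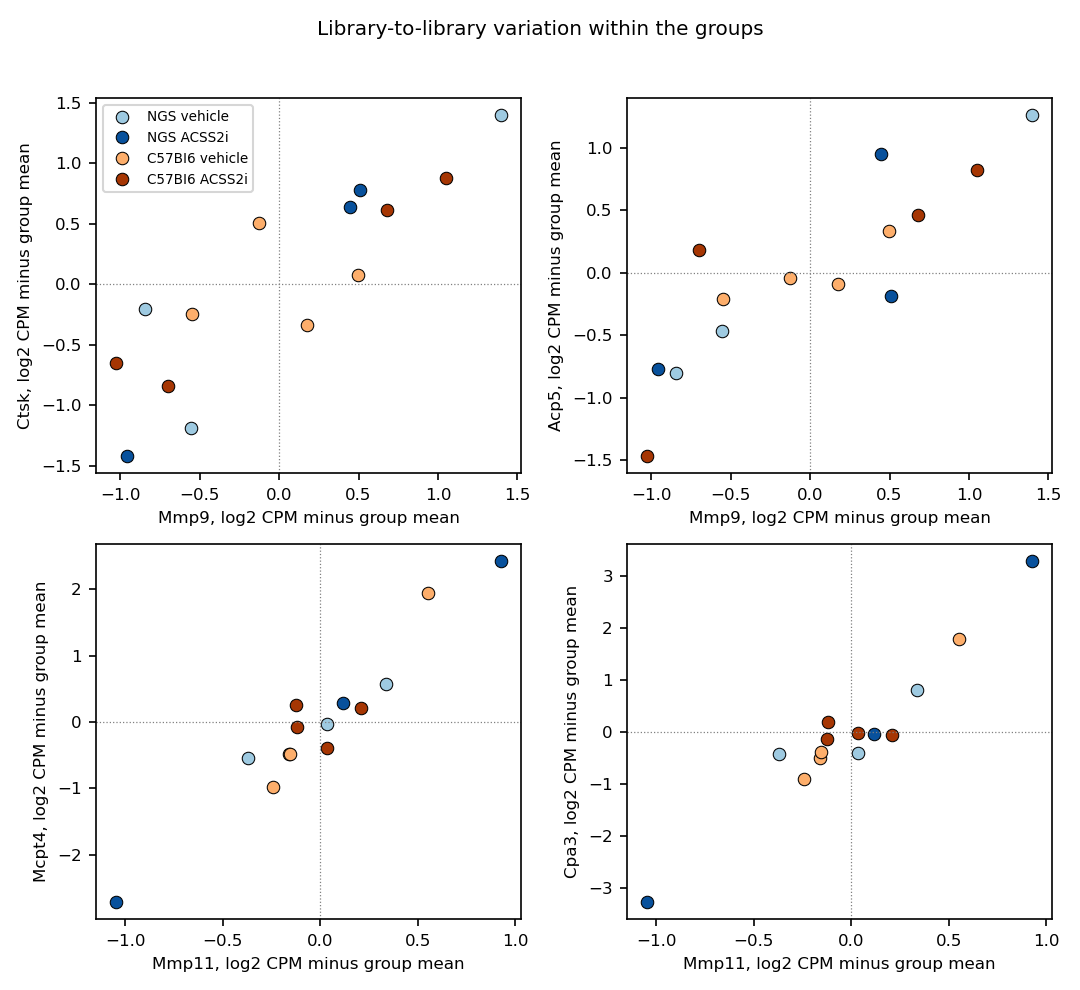
Deviation of log2 CPM from the group mean in each library for Mmp9 against Ctsk and Acp5 and for Mmp11 against Mcpt4 and Cpa3, with 1 point per library coloured by group. The points run upward in all 4 panels, and in the Mmp11 panels NGS ACSS2i replicates 1 and 2 are the extremes.

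The other likeness values were of the same size and are given by their leading gene. Mmp3 was most like Foxc1 (r = 0.924), a transcription factor gene that was also higher in C57BI/6 (1.38 ± 0.24 in vehicle, edgeR adjusted p = 4.75e-04). Mmp13 was most like Pkn3 (r = 0.95), Mmp14 like Fryl (r = 0.967) and Tnfrsf1a (r = 0.952), Timp1 like Nr1h2 (r = 0.921), Mmp12 like Auh (r = 0.952) and Mmp10 like Pbx3 (r = 0.9). Mmp2 was most like Olfr552 (r = 0.877), which was at 0 counts in all NGS libraries, so that value rests on the C57BI/6 libraries, and next like Serpine2 (r = 0.857).

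Of 15 other metalloproteinase genes 8 passed the filter on low counts. Between the strains in vehicle 2 of the 8 were higher and 3 lower in C57BI/6, against 18.8% higher and 14% lower over all genes tested. Mmp17, a membrane-anchored enzyme, was at 7.91 ± 1.51 CPM in C57BI/6 vehicle and 0.747 ± 0.466 CPM in NGS vehicle (log2 difference 3.52 ± 0.39, edgeR adjusted p = 6.24e-06). Mmp16, a transmembrane enzyme of the family of Mmp14, was at 18.8 ± 5.44 and 56.7 ± 11.9 CPM (−1.44 ± 0.23, edgeR adjusted p = 2.52e-04). Mmp23 (−1.38 ± 0.40) and Mmp27 (−3.14 ± 0.90) were also lower. Mmp27 was near the floor, with 19 counts over the 3 NGS vehicle libraries, at 0 to 2.98 CPM. It had 10 counts over the 4 C57BI/6 vehicle libraries. ACSS2i called none of the 8 in either strain by edgeR. The smallest p in NGS was that of Mmp15, a transmembrane enzyme at 4.93 ± 0.787 CPM in vehicle and 2.46 ± 0.456 CPM in ACSS2i without overlap (−1.03 ± 0.26, edgeR adjusted p = 0.0531).

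Of 5 other inhibitors 4 were tested. Between the strains in vehicle 1 was higher in C57BI/6, Timp3, and 0 were lower, against 18.8% and 14% of all genes. In ACSS2i 1 was higher in C57BI/6, Timp3, and 2 were lower, Timp2 and Timp4, against 23.1% and 17.2%. With ACSS2i Timp3 fell in NGS, a call that was not examined without the skin-rich or muscle-rich libraries. Timp3, which binds to the matrix and inhibits metalloproteinases and ADAM proteases, was at 1472 ± 226 CPM in NGS vehicle and 1096 ± 54.5 CPM in NGS ACSS2i (−0.47 ± 0.11, edgeR adjusted p = 0.0383). In C57BI/6 it was at 1620 ± 127 CPM and 1305 ± 60.8 CPM, without overlap, and the fold change of −0.37 ± 0.10 did not pass (edgeR adjusted p = 0.139). Timp2, which helps Mmp14 to activate Mmp2, was at 4067 ± 605 and 5550.0 ± 656 CPM in NGS vehicle and ACSS2i and at 4328 ± 659 and 3991 ± 443 CPM in C57BI/6. The difference between its effects in the strains was −0.58 ± 0.19 (edgeR adjusted p = 0.233).

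Of 14 genes of plasminogen and proprotein activation, which switch proenzymes on or limit that step, 12 were tested. In vehicle 3 were higher in C57BI/6 and 2 lower, shares near those of all genes (18.8% and 14%). The higher ones were Serpine2, a protease inhibitor, at 1018 against 236 CPM (2.26 ± 0.32, edgeR adjusted p = 8.25e-05), Furin, which activates Mmp11 and Mmp14, at 136 against 73.9 CPM (1.03 ± 0.17, edgeR adjusted p = 2.76e-04), and Plaur, the urokinase receptor, at 23.1 against 14.9 CPM (0.78 ± 0.15, edgeR adjusted p = 0.00119). None of the 12 passed for ACSS2i in either strain by edgeR. Bsg, which is known to induce metalloproteinases in neighbouring fibroblasts, had the smallest p in NGS, at 374 CPM in vehicle and 255 CPM in ACSS2i (−0.59 ± 0.17, edgeR adjusted p = 0.0668).

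All 15 ADAM and ADAMTS genes listed, relatives that shed membrane proteins or cut proteoglycans, were tested. Adamts1 fell in NGS from 108 to 62.4 CPM without overlap (−0.82 ± 0.17, edgeR adjusted p = 0.0239). Whether this call holds without the skin-rich or muscle-rich libraries was not tested. In vehicle 5 were higher in C57BI/6, among them Adamts4 (1.24 ± 0.13, edgeR adjusted p = 4.18e-06) and Adam10 (0.66 ± 0.10, edgeR adjusted p = 1.22e-04), and 4 were lower, against 18.8% and 14% of all genes. None of the 15 passed for ACSS2i in C57BI/6 by edgeR, where the smallest p was that of Adamts9 (0.56 ± 0.16, edgeR adjusted p = 0.242).

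All 22 genes listed as inducers of metalloproteinase transcription, AP-1 and ETS factors and cytokines, were tested. In vehicle 9 of 22 were higher in C57BI/6 and 1 was lower (18.8% and 14% of all genes), with a median log2 difference of 0.63 beside 0.01 over all genes. Tgfb1, a growth factor of stroma, was at 12.4 ± 2.06 CPM in NGS vehicle and 32.0 ± 7.95 CPM in C57BI/6 vehicle (1.52 ± 0.25, edgeR adjusted p = 3.54e-04). Il1b, an inflammatory cytokine, was at 9.04 ± 2.42 and 45.0 ± 20.9 CPM (2.46 ± 0.46, edgeR adjusted p = 8.75e-04). Il11 (2.14 ± 0.45) and the AP-1 gene Fos (2.06 ± 0.52, with overlap) also passed as higher. In NGS Tgfb1 was the 1 gene that passed for ACSS2i, rising to 30.6 ± 10.4 CPM (1.26 ± 0.28, edgeR adjusted p = 0.0291). Its call was not examined without the skin-rich or muscle-rich libraries. In C57BI/6 none of the 22 passed by edgeR. Their log2 fold changes were above 0 in 1 of 22, with a median of −0.27 beside −0.01 over all genes, and the smallest p values were those of Jun (−0.40 ± 0.17, edgeR adjusted p = 0.512) and Tgfb2 (−0.45 ± 0.19, edgeR adjusted p = 0.541).

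Of the 20 genes listed as matrix substrates, all tested, 12 were lower and 2 higher in C57BI/6 vehicle tumours (14% and 18.8% of all genes), with a median log2 difference of −0.70 beside 0.01 over all genes. Those lower included Tnc, tenascin C, at 91.5 against 363 CPM (−1.84 ± 0.24, edgeR adjusted p = 3.64e-05), Lama4, a laminin chain, at 68.8 against 144 CPM (−0.92 ± 0.12, edgeR adjusted p = 3.25e-05), and Col6a2 (−0.46 ± 0.08). Spp1, osteopontin, was higher, at 3793 against 1028 CPM (2.03 ± 0.29, edgeR adjusted p = 8.74e-05). In NGS 3 of the 20 passed for ACSS2i, against 2.69% of all genes. Whether these calls hold without the skin-rich or muscle-rich libraries was not tested. Dcn, the collagen-binding proteoglycan decorin, fell from 1393 ± 363 to 618 ± 181 CPM (−1.21 ± 0.22, edgeR adjusted p = 0.0148), and the basement membrane collagens Col4a1 (0.48 ± 0.10, edgeR adjusted p = 0.0275) and Col4a2 (0.47 ± 0.10, edgeR adjusted p = 0.0278) rose. In C57BI/6 none passed by edgeR, and the difference between the strains' effects did not pass for Col4a1 (−0.60 ± 0.14, edgeR adjusted p = 0.171). The 10 fibroblast markers, Dcn among them, summed to 4910 to 5608 CPM in NGS vehicle and 3699 to 5087 CPM in NGS ACSS2i, and to 4070.0 to 4891 CPM in C57BI/6 vehicle, and none was at 0 in any group. Of these 10 markers 5 passed as lower and 1 as higher (Dcn) in C57BI/6 vehicle, with a median log2 difference of −0.64. With ACSS2i in NGS 2 of the 10 passed, Dcn and Thy1, both lower, and the median was −0.57. The part of fibroblasts in the levels of the matrix genes was not tested.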

How the data were processed

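The deposited table holds whole-number counts per Ensembl gene, made by the authors, with 1 column per library. Per the submitters' processing notes genome build mm10, RSEM 1.2.3 and DESeq2 were used, with no role stated. The aligner, the annotation, the strand setting and the handling of shared reads are not given in the sources used here, and RSEM estimates may have been rounded. Per the labels' protocols, libraries were made from 200 ng of tumour RNA with the QuantSeq 3′ kit. Symbols came from GENCODE M21, which matched 51596 of 51789 genes.

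CPM were computed from library totals. Genes kept by filterByExpr (17294) were scaled by TMM, which shifts C57BI/6 against NGS by 0.15 (vehicle) and 0.13 (ACSS2i) on the log2 scale relative to totals, and tested with edgeR 4.0.16 (quasi-likelihood, R 4.3.3) in 1 model of 4 groups, two-sided, with Benjamini-Hochberg adjustment over all genes at 0.05. The common biological coefficient of variation was 0.236. Errors of log2 fold changes are the model's SE. The fit was tested on simulated data. Of 100 genes changed 2-fold it found 59 for ACSS2i in NGS and 66 for ACSS2i in C57BI/6. It found 30 of 100 for the difference between the strains' effects. Alternatives were DESeq2 1.42.0 (size factors, Wald test), limma 3.58.1 (voom with sample quality weights), no filter, thinned counts, a replicate block, only the groups compared, each library left out, and, chosen after seeing the data, the libraries rich in skin or muscle genes left out.

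The labels number the replicates but do not say that they are separate animals, so p-values measure the spread between these samples. No molecular identifiers are described. The 9 genes and the gene lists were chosen with earlier results of these data known. From each list, up to 4 genes past the threshold, or else the 2 with the smallest p, could be named per comparison, and not all are. The 3 genes most like a member had a mean log2 CPM of at least 1 and the highest Pearson's r of within-group deviations. RefSeq promoters are of GRCm38.p6.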

Additional observations from a re-analysis of the deposited data

Results flagged for a closer look

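Mmp11 in C57BI/6 vehicle replicate 2 stood apart from the other libraries of its group, at 51.0 CPM beside 31.4, 30 and 29.1 CPM. Its gap to the nearest library was 0.895 of the group's range, above Dixon's 95% critical value for 4 samples. Groups of 4 libraries were examined 18 times, and chance flags about 1 in 20. In the same library Mcpt4 was at 11.4 CPM, beside 1.36 to 2.03 CPM in the other 3, and Cpa3 at 25.9 CPM, beside 3.85 to 5.42 CPM. Their part in the level of Mmp11 was not tested.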

How the results depend on the processing

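Of 1026 refitted values of the 9 genes, 946 kept their direction and their side of the threshold. Genes past the threshold for ACSS2i in C57BI/6 numbered 54, and 112 with no filter, 330 with DESeq2, 429 with voom, 9 with a replicate block, 266 with only the groups compared, 117 without the skin-rich and 26 without the muscle-rich libraries, and 15 to 122 with 1 library left out. For ACSS2i in NGS 466 became 1539 with DESeq2, 27 with voom, 254 with the block, 9 with only the groups compared, 1073 without the skin-rich and 26 without the muscle-rich libraries, and 118 to 1743 with 1 library left out. Of the 9 genes, 1 passed there, and 3 with DESeq2, 0 with voom, 2 with the block (Mmp3 at an adjusted p of 0.0351), 0 with only the groups compared, 0 without the muscle-rich libraries and 0 to 1 with 1 library left out. For the difference between the effects 3 genes became 7 with no filter, 272 with DESeq2, 0 with voom, 1 with thinned counts, 34 without the skin-rich libraries and 1 to 62 with 1 left out, and of the 9 genes 1 passed with DESeq2. Between the strains in vehicle 5666 became 3061 without the muscle-rich libraries.

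Reversals touched Mmp2, Mmp9, Mmp11 and Mmp12, none of them called in that comparison. In NGS the effect on Mmp2 was −0.0317 with voom and −0.0868 without the muscle-rich libraries, that on Mmp12 −0.64 with voom and that on Mmp9 −0.369 without the muscle-rich libraries. The difference between the effects was 0.141 for Mmp12 with voom, 0.00782 for Mmp9 with thinned counts, 1.21 for Mmp9 and 0.146 for Mmp11 without the muscle-rich libraries, and 0.164 for Mmp11 without the skin-rich ones. The strain difference of Mmp2 in ACSS2i was −0.209 with the block. With 1 library left out, effects ran from −0.433 to 0.00147 (Mmp2 in C57BI/6), −0.0714 to 0.0895 (Mmp2 in NGS), −0.805 to 0.104 (Mmp11 in NGS) and −0.776 to 1.17 (Mmp12 in NGS). The difference between the effects ran from −1.13 to 0.291 for Mmp9, −0.534 to 0.357 for Mmp11 and −1.80 to 0.167 for Mmp12, and the strain difference of Mmp2 in ACSS2i from −0.17 to 0.249. The cause was not tested. No label says that the replicate numbers pair the samples, and the main fit does not pair them. Deviations of equal numbers correlated at 0.0208 to 0.127 in NGS and −0.197 to 0.213 in C57BI/6. Those of unequal numbers correlated at −0.162 to 0.108 in NGS and −0.38 to 0.475 in C57BI/6. These ranges overlap and do not settle whether the numbers mark a pairing. NGS had less depth, and Mmp10, with 2 to 19 counts per NGS library, is the gene it limits most. A lone library left in a group was assumed to vary like the other groups.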
